A study of Mus musculus with 32 samples.

Results

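SoxC, SoxE and SoxF genes are 3 subgroups of the Sox family of transcription factors, and the 9 genes Sox4, Sox11 and Sox12 (SoxC), Sox8, Sox9 and Sox10 (SoxE) and Sox7, Sox17 and Sox18 (SoxF) were looked up by symbol. All 9 were found among the 24028 gene symbols of the RNA-seq tables. Messenger levels were measured by RNA-seq in mouse embryonic stem cells (mESCs) that were wild type (WT) and in mESCs labelled Eed-/-, which are meant to lack EED, a core subunit of the Polycomb complex PRC2. Both RNA samples carry the strain label TT2, whereas Eed-/- samples of other assays in the series carry another strain label. The labels of the RNA samples describe neither the mutated allele nor the number of clones. Both lines were grown with serum and LIF on gelatin, and no feeder cells are named. There was 1 library per genotype, so the spread between cultures is unknown and no difference has a replicate check or a p-value.

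SOX proteins bind DNA through an HMG box, a domain that fits the minor groove and bends the helix, and members of a subgroup share most of this domain and often act in place of each other. SoxC genes act in progenitors of neurons and of many other tissues. SoxE genes act in Sertoli cells, cartilage, neural crest and glia, and SoxF genes in endoderm and in blood and lymph vessels. In mESCs, many such lineage genes lie in DNA methylation valleys (DMVs), wide stretches of hypomethylated DNA that often carry the PRC2 mark H3K27me3. Sox4, Sox11, Sox12, Sox9, Sox7 and Sox17 are on the study's list of mESC DMV genes, and Sox8, Sox10 and Sox18 are not.

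Levels are FPKM (sequenced fragments scaled by transcript length in kb and by library size), which can be compared between genes because length is divided out. Steps of low values gave depths of 7240000 fragments for WT and 6460000 for the library labelled Eed-/-, so that 1 fragment on a transcript of 2 kb is worth an FPKM of 0.0759 and 0.0851. Intervals below are exact Poisson or Clopper-Pearson intervals at 95%, and they cover counting error only. Changes are differences in log2(FPKM + 1) after quantile normalization, a scale that understates the change of low genes. Genes were tested where the normalized FPKM of the libraries averaged 0.1 or more, which left 14835 genes. A rise of 2-fold or more in the library labelled Eed-/- was seen for 564 of them (3.80%), and a drop of that size for 590 (3.98%). Without scaling, the split was 455 higher and 801 lower, and the median change of the genes tested moved from 0.01 to -0.09. The Eed transcript was not reduced (FPKM 63.0 in WT against 70.9 in the other library, change 0.40). For this reason the second library is called by its label throughout. An RNA level does not measure EED protein. The study checked the loss of Eed in Eed-/- mESCs by western blot and ChIP-seq of H3K27me3.

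In the library labelled Eed-/-, all SoxC genes had lower values and all SoxF genes higher ones. The SoxE genes were low in both libraries and differed in direction. Summed over the SoxC genes, FPKM in the library labelled Eed-/- was 0.517 of that in WT, with 6.20 left. The sum of the SoxF genes was 1.08 in WT and 2.89 in the other library, and that of the SoxE genes 0.853 and 0.948. SoxC genes thus held 86.1% of the summed FPKM of the 9 genes in WT against 61.7% in the other library, and SoxF genes 7.76% and 28.8%. These sums use the FPKM as deposited, and those of the SoxF genes rest on about 15 and 44 fragments. The share of a subgroup also rises where the values of the others drop. None of the 9 genes passed 2-fold on the log2(FPKM + 1) scale, beside the 3.80% and 3.98% of all genes tested. A gene under a normalized FPKM of 1 in both libraries cannot pass on this scale. This holds for Sox8, Sox9, Sox10 and Sox17, so for them the result was fixed in advance. The median change was -0.58 for SoxC, 0.10 for SoxE and 0.54 for SoxF, each over all 3 genes of the subgroup, beside 0.00 over all genes of the table. Over the 2 SoxE genes tested it was -0.03. Of all genes tested, 50.9% were higher by any amount and 49.0% lower. With 3 genes a subgroup and 1 library per genotype, the difference between the subgroups was not tested.

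**Figure D1:**
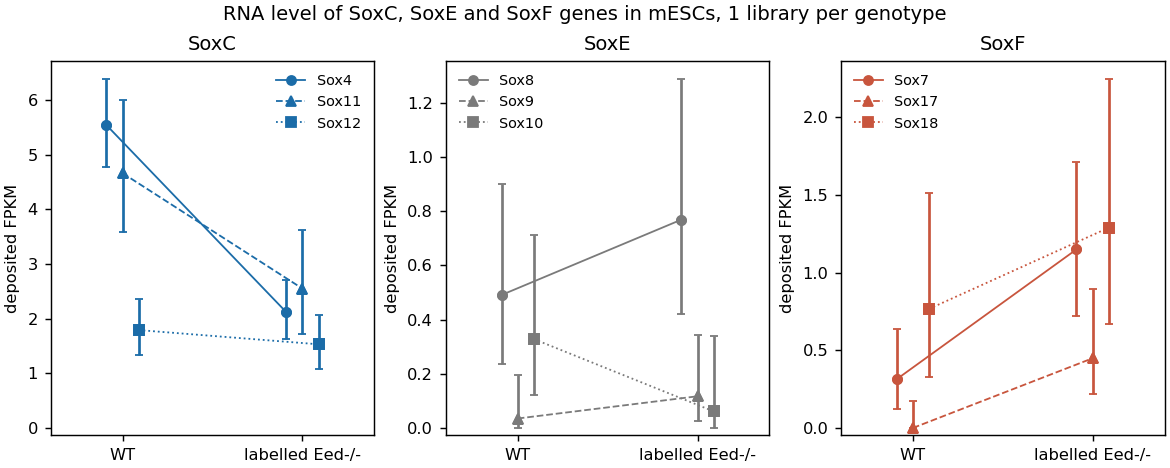
Deposited FPKM (linear y axes, a different range in each panel) of the SoxC, SoxE and SoxF genes in the WT library and the library labelled Eed-/-; points are single libraries and bars are 95% counting intervals. The 3 SoxC genes go down from WT, the 3 SoxF genes go up, and the SoxE genes cross.

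The intervals of Sox12 and Sox18 overlapped in each library, but by value the SoxC genes were the highest of the 9 in both. Their promoters are shown because these genes all had lower values in the library labelled Eed-/-, as the 250 bases before the RefSeq start on the GRCm38.p6 build, 5' to 3' on the gene's strand, with CG dinucleotides in capitals. Sox4 is at chr13:28953700-28953949, Sox11 at chr12:27342719-27342968 and Sox12 at chr2:152398047-152398296, all on the minus strand.
Sox4: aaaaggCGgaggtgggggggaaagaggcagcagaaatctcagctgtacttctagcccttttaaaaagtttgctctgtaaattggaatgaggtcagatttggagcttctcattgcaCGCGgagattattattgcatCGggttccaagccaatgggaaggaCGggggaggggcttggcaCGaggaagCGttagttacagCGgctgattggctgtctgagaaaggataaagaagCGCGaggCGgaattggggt
Sox11: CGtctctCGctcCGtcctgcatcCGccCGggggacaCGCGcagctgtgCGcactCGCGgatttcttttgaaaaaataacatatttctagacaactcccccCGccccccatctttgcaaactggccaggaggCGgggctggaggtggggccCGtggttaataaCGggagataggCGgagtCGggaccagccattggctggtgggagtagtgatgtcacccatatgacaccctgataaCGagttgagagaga
Sox12: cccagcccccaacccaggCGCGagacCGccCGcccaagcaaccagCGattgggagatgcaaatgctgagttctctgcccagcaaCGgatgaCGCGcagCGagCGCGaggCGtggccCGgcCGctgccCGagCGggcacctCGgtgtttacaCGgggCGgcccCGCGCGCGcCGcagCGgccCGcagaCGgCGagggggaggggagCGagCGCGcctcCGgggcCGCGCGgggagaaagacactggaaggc
Sox7, Sox9, Sox10, Sox17 and Sox18 had no entry. The Sox4 window holds 11 CG dinucleotides, the Sox11 window 17 and the Sox12 window 35, against a median of 6 over 32851 promoters of the same length. They lay at percentiles 64.4, 76.5 and 97.0 of these promoters, so the order of CG number among the SoxC genes was Sox12, Sox11 and Sox4. The window of Sox8, the only other gene of the 9 with an entry, holds 18. The letters CCAAT, on either strand, occur 4 times in the Sox4 window and once each in those of Sox11 and Sox12, and 33.8% of all promoters hold them. TATAAA (12.4% of promoters) and AACAAT (9.42%), the core of many SOX sites, were not found in the windows of the 3 genes on either strand.

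Sox4 promotes survival of progenitors and is active in many embryonic tissues. On mm9 it spans chromosome 13 from 29040788 to 29045582 (minus strand), and its longest annotated transcript is 1 exon of 4795 bp. Its FPKM was 5.54 in WT against 2.12 in the library labelled Eed-/-, which stand for 185 and 63 fragments on that transcript. On its 3 shorter transcripts they would stand for at most 29.6 and 10.1, and on the shortest the interval of the ratio would hold 1 (0.0651 to 1.5). The ratio of depth-scaled fragments was 0.382 (interval 0.282 to 0.511), and the change after normalization was -0.97, just under 2-fold. With the FPKM as deposited it was -1.07 and passed 2-fold. A non-coding gene, Gm17419, overlaps Sox4 on the other strand, and how strand was used in the counting is not given in the sources used here.

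Sox11 drives neuronal differentiation together with Sox4. It lies on the minus strand of chromosome 12 from 28025562 to 28027574, with 1 annotated transcript of 2013 bp in 1 exon. Its FPKM was 4.66 in WT against 2.55 in the library labelled Eed-/-, about 62 and 30 fragments for a transcript of this length. The ratio was 0.542 (interval 0.338 to 0.852) and the change -0.58. A longer transcript model would mean more fragments for the same FPKM. The WT intervals of Sox4 (4.77 to 6.39) and Sox11 (3.58 to 5.99) overlapped, so their order in WT was not resolved, and in the other library Sox11 stood first.

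Sox12, the third SoxC gene, is the weakest activator of the subgroup. It lies on the minus strand of chromosome 2 from 152219347 to 152223782. Its FPKM was 1.79 in WT against 1.53 in the library labelled Eed-/-, with 52 and 39 fragments. The ratio was 0.841 and its interval, 0.540 to 1.30, held 1, so a difference was not detectable at this depth. Sox12 was below Sox11 in WT without overlap of the intervals, but in the library labelled Eed-/- the intervals of neighbours in the order of levels all overlapped.

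Among the SoxE genes, Sox8 had the highest value in both libraries, but in WT its interval overlapped that of Sox10. Sox8, which acts beside Sox9 in the testis, lies on the minus strand of chromosome 17 from 25702837 to 25707631. Its FPKM was 0.491 in WT against 0.769 in the library labelled Eed-/-, or 10 and 14 fragments, and the ratio of 1.57 had an interval of 0.648 to 3.95. Sox9, the master regulator of cartilage and of Sertoli cells, lies on the plus strand of chromosome 11 from 112643538 to 112649074. It had the values 0.0349 and 0.117, which stand for 1 and 3 fragments, and a ratio of 3.36 with an interval of 0.270 to 177. Sox9 was the only one of the 9 genes with a mean normalized FPKM under 0.1.

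Sox10 directs neural crest, melanocytes and myelinating glia, and lies on the minus strand of chromosome 15 from 78985343 to 78994920. It was the only SoxE gene with a lower value in the library labelled Eed-/-, with an FPKM of 0.328 in WT and 0.0612, or 6 and 1 fragments. The ratio of 0.187 had an interval of 0.00406 to 1.54. None of the 3 SoxE differences was thus detectable at this depth. With pseudocounts of 0.1 and 0.01 in place of 1, the change of Sox10 was -1.45 and -2.34, which rests on these few fragments.

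Sox7, a SoxF gene of primitive endoderm and early vessels, had the largest of the SoxF changes with a pseudocount of 1, whereas with 0.1 and 0.01 that of Sox17 was larger (2.48 and 5.54). It lies on the plus strand of chromosome 14 from 64562511 to 64569569, with 1 annotated transcript of 3298 bp. Its FPKM was 0.314 in WT against 1.15 in the library labelled Eed-/-, or 7 and 23 fragments. The ratio was 3.68 (interval 1.53 to 10.2), while the change on the log2(FPKM + 1) scale was 0.73. With a pseudocount of 0.1 the change was 1.62 and passed 2-fold, as did 11.4% of all genes tested in that direction.

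Sox17 is a regulator of primitive and definitive endoderm and of arterial and blood-forming endothelium. It lies on the minus strand of chromosome 1 from 4481009 to 4486494. It was listed at 0 in WT and at an FPKM of 0.449 in the library labelled Eed-/-, about 9 fragments on the longer annotated transcript of 3130 bp and 3.86 on the shorter of 1512 bp. The counting interval of the ratio to WT began at 2.21 with the longer transcript. With the shorter it began at 0.740 and so held 1. The 0 may also come from an estimate that failed. Genes of chromosome 1 had lower values as a group in the library labelled Eed-/- (median change -0.29 over 758 genes), whereas Sox17 had a change of 0.54. The chromosomes of the other 8 genes had medians between -0.07 and 0.12. Outside the chromosomes of the 9 genes, medians reached -0.38 on chromosome 8 (706 genes), 0.46 on X (524 genes) and 1.77 on Y (6 genes).

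Sox18, which acts in endothelium and lymphatic vessels, lies on the minus strand of chromosome 2 from 181404541 to 181406345. Its FPKM was 0.767 in WT against 1.29 in the library labelled Eed-/-, with 8 and 12 fragments, and its interval of 0.632 to 4.74 held 1. By value Sox18 was the highest SoxF gene in both libraries, but its interval overlapped that of Sox7 in each. All SoxF genes stayed under an FPKM of 2 in both. In the library labelled Eed-/-, Sox18, Sox7 and Sox12 stood next to each other in the order of levels with overlapping intervals, whereas in WT Sox7 (interval 0.125 to 0.639) lay below Sox12 (1.34 to 2.36).

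**Figure D2:**
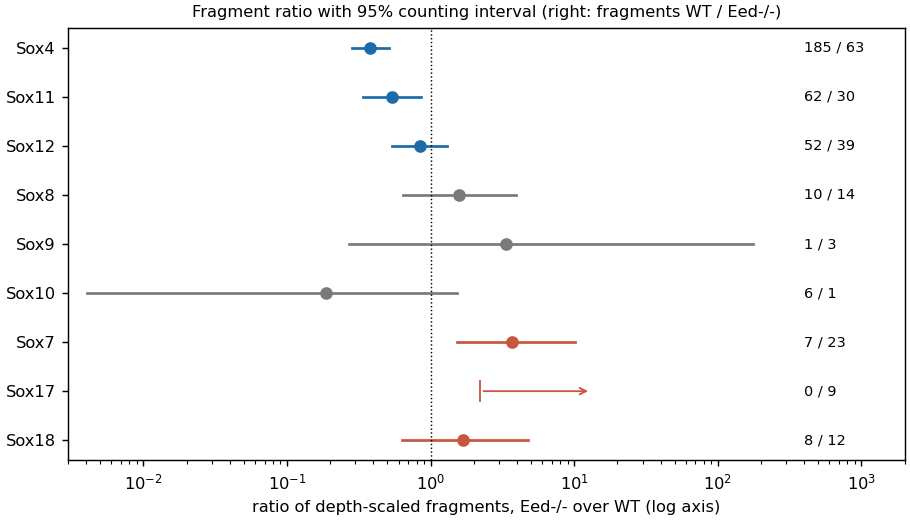
Ratio of depth-scaled fragments, library labelled Eed-/- over WT, on a log axis, with 95% counting intervals as lines; the fragments in the 2 libraries stand on the right, and the arrow of Sox17 starts at the lower limit of its interval, 2.21, for the longer transcript. The intervals of Sox4 and Sox11 lie below 1, those of Sox7 and Sox17 lie above 1, and those of Sox12, Sox8, Sox9, Sox10 and Sox18 hold 1.

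Counting intervals thus left out 1 for 4 of the 9 genes, Sox4 and Sox11 below it, and Sox7 and Sox17 above it, Sox17 only with its longer transcript and Sox4 except with its shortest. This share is not above the background: among 12609 genes with a fragment number the interval lay below 1 for 31.9% and above 1 for 19.2%, or 51.1% in either direction. With the ratios divided by the median-ratio factor of 0.894, these shares were 23.7% and 25.6%, and the same 4 genes stayed on their sides of 1. The background holds only genes tested, so Sox9 is outside it, and Sox17 was tested only through the library where it is high. Such intervals compare the 2 libraries, and in them genotype, line and culture cannot be told apart.

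**Figure D3:**
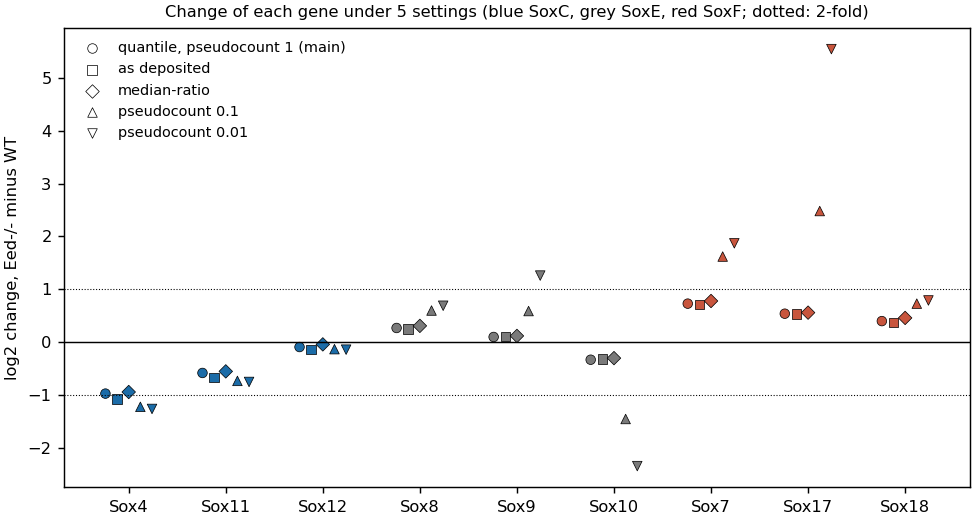
Change of each of the 9 genes, library labelled Eed-/- minus WT, on the log2 scale under 5 settings of scaling and pseudocount; dotted lines mark 2-fold and colors mark the subgroup. A pseudocount cannot turn a gene's sign, and SoxC genes are below 0 and SoxF genes above 0 with each of the 3 scalings drawn. A smaller pseudocount moves Sox17, Sox10, Sox9 and Sox7 far more than Sox4.

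The other 11 Sox genes set the 9 in context. Sox2, a SoxB1 gene and a core factor of pluripotency, held 86.2% of the summed FPKM of the 20 Sox genes in WT against 86.4% in the library labelled Eed-/-. Its FPKM was 196 and 157, and its change -0.08. Of the other SoxB genes, Sox1, an early neural gene, had values of 1.94 and 0.924, Sox3 had 0.366 and 0.411, and Sox21 had 0.612 and 2.36. With quantile normalization and a pseudocount of 1, Sox21 was the only one of the 20 genes past 2-fold, with a change of 1.10. Under other settings more of them passed, Sox4 with the FPKM as deposited (-1.07), and Sox4, Sox10, Sox7 and Sox17 with a pseudocount of 0.1. Sox14 was listed at 0 in both libraries.

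The SoxD genes lack a transactivation domain and work with SoxE factors in cartilage. Sox13 had values of 6.24 and 6.47, and Sox5 and Sox6 had an FPKM under 0.04 in each. Sox15 (SoxG) had values of 8.04 and 4.36 and a change of -0.63, close to that of Sox11. Sox30 (SoxH) had values of 0.147 and 0.0550, and Sry, the testis-determining gene on chromosome Y, was listed at 0 in both. Of the 7 genes tested among these 11, 3 were higher and 4 lower, with a median of -0.08.

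**Figure D4:**
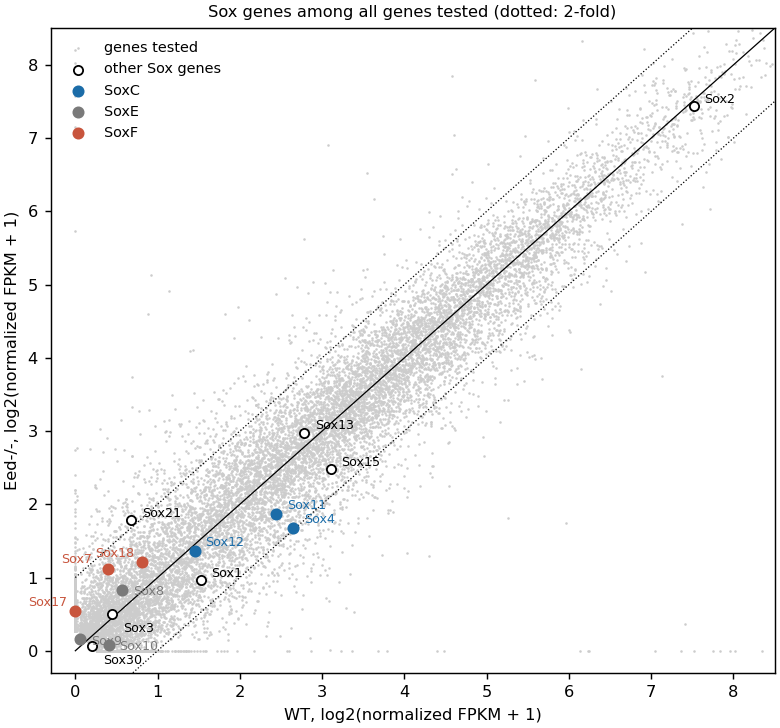
Normalized level in WT (x axis) and in the library labelled Eed-/- (y axis), both as log2(FPKM + 1), of the genes tested (grey), the 9 SoxC, SoxE and SoxF genes (colored) and other Sox genes (open); genes above 8.5 are not drawn. SoxC genes lie below the diagonal, SoxF genes above it, Sox2 lies near it at the top, and Sox21 lies just past the 2-fold line.

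Genes of the cell types in which SoxC genes act were looked up next, and genes outside the first 4 of each list are named here because they passed 2-fold, were listed at 0 in both libraries or bear on a named group, choices made after their values were seen. The background for this and each later list is all genes tested. Of these, 50.9% were higher by any amount, 3.80% at least 2-fold higher and 3.98% at least 2-fold lower. Of 15 genes of neurons, 13 were tested, 11 of them higher and 2 lower in the library labelled Eed-/-, and their median was 0.36 (0.30 over all 15). Tubb3, a neuronal tubulin and a known SoxC target, had an FPKM of 95.4 in WT and 74.0. Stmn2, a stathmin of growing axons, had values of 80.2 and 68.9, and its change of 0.01 turned to -0.22 with the FPKM as deposited. Map2, of dendrites, had values of 1.17 and 2.07, and Dcx, of migrating neurons, was listed at 0 in both libraries. At least 2-fold higher were the neurofilament gene Nefm (0.635 and 3.61) and the adhesion molecule gene Ncam1 (1.14 and 6.54), and 2-fold lower was Neurod1 (2.81 and 0.469). Among 6 genes of neural progenitors, 3 of 4 tested were higher and none passed 2-fold, with a median of 0.02 over all 6. Zbtb16 was under a normalized FPKM of 1 in both libraries and could not pass.

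For the SoxE genes, lists of cartilage, of neural crest, glia and melanocytes, and of Sertoli cells were used. Of 8 cartilage genes tested, 5 were higher and 3 lower, with a median of 0.18 (0.07 over all 11). Col2a1, the main cartilage collagen and a direct Sox9 target, had values of 0.364 and 0.620. Acan, the proteoglycan aggrecan, had 2.14 and 1.77, Col11a2 had 0.153 and 0.0286, and Col9a1 was listed at 0 in WT and at 0.0531 in the other library. Col9a2 passed 2-fold (2.43 and 5.55).

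Of 12 tested genes of neural crest, glia and melanocytes, 11 were higher and 1 lower, with a median of 0.23 (0.17 over all 16) beside 0.01 for all genes tested. Mitf, a Sox10 target and the regulator of melanocytes, had values of 2.30 and 5.85 and a change of 1.16. Erbb3, a receptor of glial precursors, had 7.10 and 6.94, Tfap2a had 0.0906 and 0.304, and Snai2 had 0.226 and 0.423. Foxd3, which is also active in mESCs (5.67 and 13.6), and the neurotrophin receptor gene Ngfr (8.85 and 22.7) also passed 2-fold. Dct, of differentiated melanocytes, and S100b, of glia, were listed at 0 in both libraries. Of 4 Sertoli cell genes tested, 2 were higher and 2 lower, and Dmrt1 was 2-fold lower (14.2 and 2.62), and the other 3 did not pass 2-fold. Of these, Amh and Ptgds were under a normalized FPKM of 1 in both libraries and could not pass.

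For the SoxF genes, primitive endoderm was looked at first, as Sox7 and Sox17 mark it. Of 19 genes tested, 15 were higher and 4 lower in the library labelled Eed-/-, and their median was 0.36 (0.21 over all 23). Among all genes tested, 50.9% were higher by any amount and 3.80% at least 2-fold higher. The summed FPKM of all 23 genes was 202 in WT against 248 in the other library. Gata4, a regulator of this lineage, had values of 0.431 and 1.35 and a change of 0.73, the same as that of Sox7. Gata6 had 0.184 and 0.514, Dab2, an endocytic adaptor, had 0.499 and 0.515, and Sparc, a matrix protein, had 71.9 and 67.9 with a change of 0.14 that turned to -0.08 with the FPKM as deposited. Past 2-fold were Lama1 (8.25 and 33.5), Col4a1 (5.62 and 19.1), Col4a2 (2.68 and 6.97) and Nid1 (8.36 and 21.2), which encode basement membrane proteins, and Pth1r was 2-fold lower (4.85 and 0.683). The other laminin genes of the list, Lamb1 (29.6 and 24.8) and Lamc1 (62.1 and 61.2), did not pass. Afp and Ttr, which mark the visceral endoderm, were listed at 0 in both libraries. In bulk RNA, more cells of a type and more RNA per cell cannot be told apart, and the part of such cells in the SoxF values was not tested.

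Endothelium and blood precursors, the other site of SoxF activity, held genes past 2-fold in both directions. Of 16 genes tested, 11 were higher and 5 lower, with a median of 0.19 (0.16 over all 21), beside 50.9% higher among all genes tested. The summed FPKM of the list was 64.9 in WT against 38.9 in the library labelled Eed-/-. Kdr, a receptor for VEGF, had values of 0.158 and 1.59 and a change of 1.18, and Notch4 (0.884 and 3.84) passed 2-fold too. Pecam1, an adhesion molecule also found on mESCs, had 35.1 and 13.1 and a change of -1.19, and Egfl7 (18.5 and 7.70) was also 2-fold lower. Cdh5, which defines endothelium, was listed at 0 in WT and at 0.122 in the other library, and Etv2 had 1.11 and 1.78. Of 6 mesendoderm genes tested, 3 were higher and 3 lower, Gsc (0.415 and 1.87) and Eomes (0.478 and 1.93) were 2-fold higher, and Cer1 and Lhx1 were listed at 0 in both libraries.

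**Figure D5:**
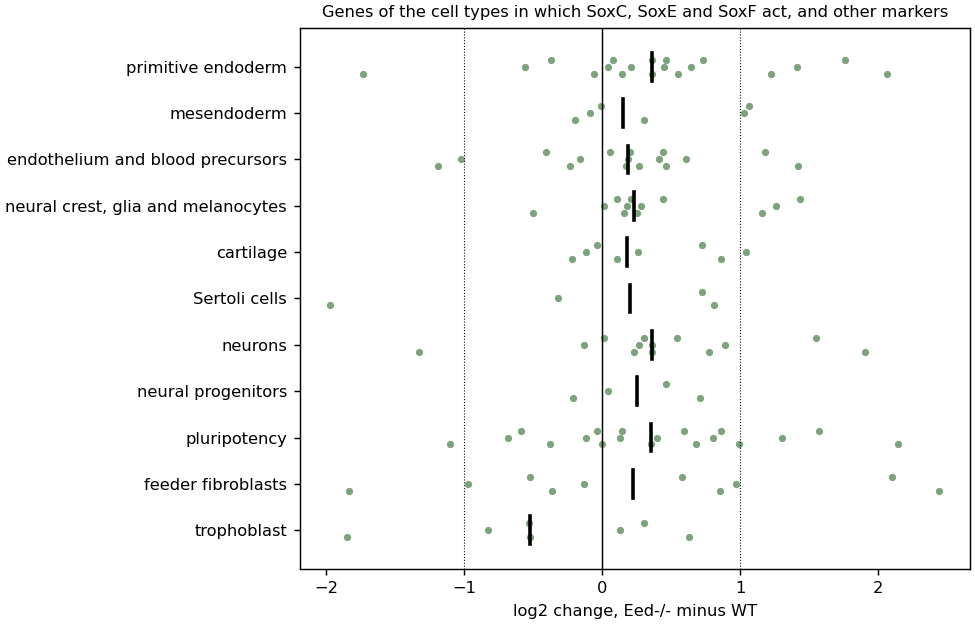
Change on the log2(FPKM + 1) scale, library labelled Eed-/- minus WT, of each tested gene (points) of the lists of cell type genes, with the median of each list as a black bar and dotted lines at 2-fold. Medians over tested genes lie between 0.15 and 0.36 for the lists above trophoblast, which is at -0.52, whereas over all genes listed they run from -0.07 for feeder fibroblasts to 0.35 for pluripotency, with trophoblast at 0.00. Every list drawn holds genes on both sides of 0.

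Markers of the cultured cells themselves were checked as well. All 19 pluripotency genes had an FPKM of at least 6.36 in WT and 15.5 in the other library, 12 were higher and 7 lower, and Zfp42, Tbx3 and Prdm14 passed 2-fold upward and Dppa3 downward. Of 10 feeder fibroblast genes tested, 5 were higher and 5 lower, with Vim (24.9 and 118) and Thy1 (0.976 and 6.97) 2-fold higher and Tagln (4.32 and 0.440) 2-fold lower, and Dcn was listed at 0 in both libraries. Fn1, fibronectin, had 55.9 and 33.5, and the smooth muscle actin gene Acta2 had 1.10 and 0.0648. The summed FPKM of the feeder list was 90.9 in WT against 167 in the other library, but without Vim it was 66.0 and 48.3, and its part in the Sox values was not tested. Of 7 trophoblast genes tested, 3 were higher and 4 lower, and Tfap2c was 2-fold lower. Of the 11 PRC2 genes, 6 were higher and 5 lower, and Phf19 was 2-fold lower.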

How the data were processed

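Strand-specific RNA-seq libraries labelled as WT and Eed-/- mESCs were analysed, with 1 sample per label. The other 30 samples of the series (ChIP-seq, MethylC-seq and 4C-seq) were not analysed here. The deposited values are FPKM for each gene symbol, made by the authors with Cufflinks from TopHat alignments on mm9. The submitters' processing notes name TopHat2 2.0.11 and Cufflinks 2.2.1. The annotation and any scaling between libraries are not given in the sources used here.

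Rows of 268 symbols with several entries were summed (each of the 9 Sox genes is listed once), and the libraries were quantile-normalized, as in the study. A change is the difference in log2(FPKM + 1). The filter kept normalized FPKM averaging 0.1 or more, 8 of the 9 Sox genes among them. Sox17 passed this filter only through the library where it is high. No model was fitted, since 1 library a group leaves no residual degrees of freedom.

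Positions and transcript lengths are from GENCODE vM1 on NCBIM37 (mm9). Depth was taken as the value at which low FPKM of 5053 genes (a single annotated transcript, 1000 bp or longer) came nearest to whole fragments, with 180 bp taken off each length. Within 0.1 of a whole number lay 78.9% of 839 low values in WT and 79.6% of 946 in the other library, against 20% without steps. Fragments were rounded before intervals were computed. Of the 50-base windows of the Sox transcripts, 2 of Sox7 also occur in coding transcripts of other genes, and 0 of the other 8 genes.

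The members and gene lists were chosen with earlier results of these data known. Named by rule are the 9 genes, all other Sox genes, Eed and the first 4 genes of 5 lists. Also named by rule are the nearest protein-coding genes with a listed FPKM beside each member. Other list genes, and those past 2-fold in lists outside these 5, were named after their values were seen. No gene was named for a likeness in pattern, since 2 libraries give 1 difference. Alternatives were other scalings, pseudocounts of 0.1 and 0.01, other filters, removal of symbols with several entries, a 3-fold threshold, and full transcript lengths. Dividing fragment ratios by the median-ratio factor was chosen after seeing the data. The computations were tested on simulated data. Software was scipy 1.17.1, pandas 2.3.3 and numpy 2.4.6 under Python 3.11.15, with figures from matplotlib 3.10.9.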

Additional observations from a re-analysis of the deposited data

How the results depend on the processing

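No paired analysis was possible because each genotype has 1 RNA-seq library, and for the same reason no replicate could be left out. Each of the 9 Sox genes kept its direction under the 2 other scalings. Pseudocounts and filters cannot turn a gene's direction. With the FPKM as deposited, 1 gene (Sox4) was at least 2-fold lower instead of 0. The pseudocount moved the values most. With 0.1, 2 of the 9 genes were at least 2-fold higher (Sox7 and Sox17) and 2 lower (Sox4 and Sox10), against 1694 and 1778 of all genes tested, and the medians were -0.73 for SoxC, 0.59 for SoxE and 1.62 for SoxF. With 0.01, 3 were higher (Sox9 joining them, although it did not pass the filter) and 2 lower. Of all genes tested, 1914 (12.9%) were higher and 1989 (13.4%) lower. The medians were -0.75, 0.69 and 1.87, again with Sox9 included, and the SoxE genes tested had 0.69 (Sox8) and -2.34 (Sox10). A 3-fold threshold left 152 genes higher and 137 lower in the whole table. With no bases taken off the transcript length, the intervals of the 8 genes with fragments in both libraries stayed on their sides of 1. Depth limits the SoxE and SoxF genes, as their WT values rest on 0 to 10 fragments.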

Other observations

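The protein-coding genes nearest to the 9 Sox genes, among those with a listed FPKM, had differences in both directions. No counting intervals are given for these neighbours, and the values of Nrsn2, Sstr5, Gm9866 and Kcnj2 were low in both libraries. Beside Sox12, Nrsn2 (17.0 kb away) had an FPKM of 0.115 in WT against 0.516 in the library labelled Eed-/-, and Zcchc3 (13.9 kb) had 14.1 and 6.23. Beside Sox18, Prpf6 (14.2 kb) had 69.8 and 40.9, and Tcea2 (8.67 kb) had 0.840 and 1.89. Sox7 was higher while Pinx1 (23.8 kb), a telomerase inhibitor gene, had 19.3 and 17.0, with a change of -0.01. Beside Sox17, Mrpl15 (277 kb), a mitochondrial ribosomal protein gene, had 99.3 and 42.2 and a change of -0.99, and Rp1 (131 kb) was listed at 0 in both libraries. Beside Sox8, Lmf1 (8.49 kb) had 4.66 and 0.921 and was 2-fold lower with a change of -1.49, while Sstr5 (68.6 kb) was listed at 0 in WT and at 0.258 in the other library. Sox10 lies 3.14 kb from Polr2f, a subunit gene of RNA polymerases, which had 124 and 128, and 64.7 kb from Pick1, which had 14.7 and 10.8.

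Sox4, Sox11 and Sox9 lie in gene-poor stretches. Cdkal1, 238 kb from Sox4, had an FPKM of 9.67 in WT against 7.23 in the library labelled Eed-/-, and Prl5a1 on the other side (797 kb) was listed at 0 in both. Beside Sox11, Gm9866 (180 kb) was listed at 0 in WT and at 0.105 in the other library, and Dcdc2c was listed at 0 in both. Slc39a11, a zinc transporter gene 457 kb from Sox9, had 5.71 and 10.8 and a change of 0.96, and Kcnj2 had 0.0263 and 0.177.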
